A study of Mus musculus with 6 samples.

Results

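The apolipoprotein genes of chylomicron assembly were described in the terminal ileum, where the small intestine ends, of C57BL/6 mouse pups at postnatal day 9. They were Apoa1, Apoa2, Apoa4, Apoa5, Apob, Apoc1, Apoc2, Apoc3 and Apoe, together with Apobec1, which encodes the enzyme that edits the Apob messenger. These 10 genes were taken by name from 55487 gene identifiers. They were chosen by name with their FPKM difference between the NEC and control libraries already known, so their values in that comparison are given as a description. Where their calls in the fit of the whole table are printed, nothing is read from them.

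The series held 3 RNA-seq libraries labelled NEC and 3 labelled control. NEC, or necrotizing enterocolitis, is a severe inflammation of the bowel that strikes mainly newborns born early, and the title of the series concerns genes of autophagy. Per the labels, NEC was induced by gavage of a hyperosmolar formula made with 15 g of Similac and 75 mL of Esbilac, by hypoxia and by lipopolysaccharide. Hypoxia was 5% O2 for 10 min, given 3 times a day over 4 days, and lipopolysaccharide was fed at 4 mg/kg/day on postnatal days 6 and 7. The control labels carry the same treatment text, so how the controls were fed and handled is not stated. The labels name no genetic change in either group and do not say whether a library came from 1 animal or from a pool. The p-values below therefore reflect how much these libraries vary, which can include technical variation.

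Chylomicrons are the fat-carrying particles that absorptive cells of the small intestine, the enterocytes, release into the lymph after a meal. Each particle is built around 1 molecule of apolipoprotein B, is loaded with triglyceride in the endoplasmic reticulum by the microsomal triglyceride transfer protein Mttp, and carries smaller apolipoproteins on its surface. Apolipoproteins A-I and A-IV are made in large amounts by enterocytes, whereas apolipoprotein E and the C apolipoproteins are best known as products of the liver and, for Apoe, of macrophages.

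Values are FPKM, fragments per kilobase of transcript per 1000000 mapped fragments, so levels of different genes can be compared per length. The smallest steps of the values corresponded to a depth of 15.2 to 18.7 M fragments (M, 1000000) per library. The share of all FPKM held by 7SL and 7SK RNA, which are abundant small noncoding RNAs, was 52.6% in NEC 1 and 33.8% to 40.0% in the other libraries. Of 15806 genes whose mean reached 1 FPKM, 38.2% were called at a Benjamini-Hochberg adjusted p under 0.05 with limma on log2(FPKM + 1), 7.69% higher and 30.6% lower in NEC. Higher calls made up 20.1% of all calls on the deposited scale, 54.5% after TMM scaling, 48.0% after quantile normalization, 36.1% after scaling to epithelial markers and 35.0% among genes of at least 5 FPKM. Over all tested genes the median log2 change was -0.26, and TMM scaling moved it by 0.27. Log2 changes are given as NEC minus control, in deposited units, and should be set against that median. They understate the change of genes of low value. In whole tissue, fewer cells of a type and less RNA per cell cannot be told apart.

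Apob, Apoa1, Apoa4, Apoc2 and Apoc3 were higher in all 3 NEC libraries than in any control. The ratio of the group means ran from 1.81 for Apoa1 to 15.4 for Apoc2. Apoe and Apobec1 overlapped between the groups. Apoa2, Apoa5 and Apoc1 were at or close to 0 in all 6 libraries. Of the 10 genes, 7 had a mean of at least 1 FPKM. Of these 7, 5 were called higher, against 7.69% of all tested genes, and 0 were called lower, against 30.6%. The 5 called genes were also the 5 whose NEC values all lay above the controls, a pattern that 11.8% of the tested genes showed, and 0 had all NEC values below the controls, as 47.3% of the tested genes did. These calls come from the contrast by which the genes were listed.

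**Figure D1:**
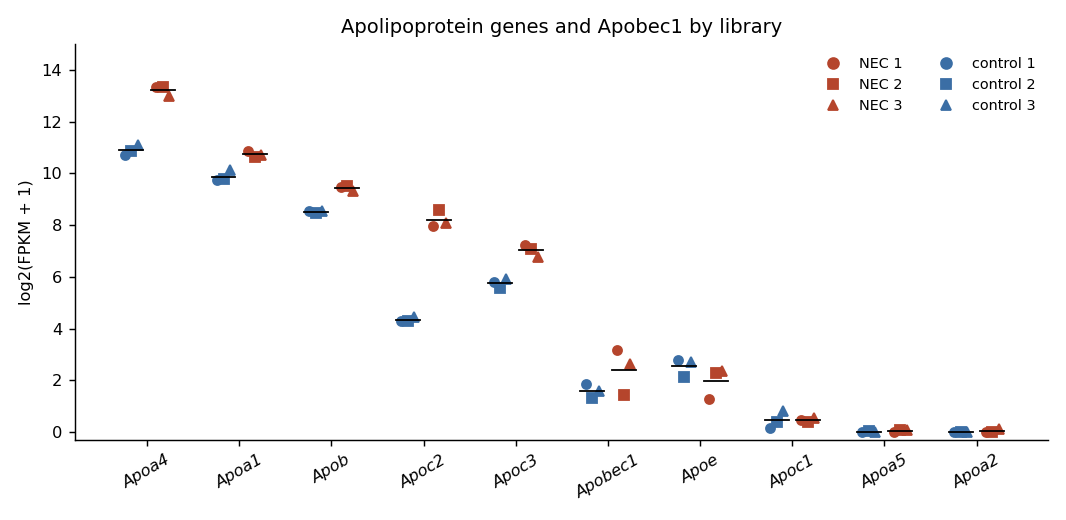
Level of the listed genes in each library as log2(FPKM + 1); each symbol is 1 library, 3 control (blue) and 3 NEC (red), and the bars are group means. Apoa4, Apoa1, Apob, Apoc2 and Apoc3 have every NEC symbol above every control symbol, whereas those of Apobec1, Apoe and Apoc1 overlap.

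The structural apolipoprotein comes first. Apob (chromosome 12, 7977648 to 8016835, plus strand, mm10) encodes the large protein that stays with a chylomicron from its assembly to its uptake. It was at 702, 737 and 636 FPKM in NEC 1, 2 and 3 and at 376, 349 and 369 FPKM in control 1, 2 and 3. The lowest NEC library was above the highest control, and the log2 change was 0.92 (SE 0.11, n = 3 each). The level of Apob rested on an estimated 73962 to 186393 fragments per library.

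The Apob promoter is shown because it holds, in a short stretch, the kinds of letters named for liver and gut promoters. The window lies directly upstream of the first annotated start (chr12:7977427-7977647, plus strand, GRCm38.p6, sequence from RefSeq). Capitals mark TGGACCTTT, which reads AAAGGTCCA on the other strand, a spelling of the direct repeat bound by HNF4, and TATAAA, the TATA box.

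Apob: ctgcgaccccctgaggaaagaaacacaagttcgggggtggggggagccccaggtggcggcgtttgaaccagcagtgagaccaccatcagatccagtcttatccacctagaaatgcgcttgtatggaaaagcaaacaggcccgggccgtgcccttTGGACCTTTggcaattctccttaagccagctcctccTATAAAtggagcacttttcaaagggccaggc

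Searched on both strands, AAAGGTCCA occurred in 0.244% of 32851 mouse promoters, and TATAAA in 13.6%. These shares are of untrimmed promoter windows, which are longer than the stretch shown and reach past the annotated start. The spelling AAAGGTCCA was added to the search after the sequences had been seen. A match of letters is a description and shows no binding.

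Apobec1 encodes the cytidine deaminase that changes 1 cytidine of the Apob messenger to uridine, which turns a glutamine codon into a stop codon and yields the shorter protein B48. The edited stretch is shown because it joins the 2 listed genes. It was read from the Apob transcripts of GENCODE M21 (chr12:8008039-8008072, plus strand, mm10). Capitals mark the CAA codon and TGATCAGT, the start of the mooring sequence that holds the editing complex.

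Apob editing site: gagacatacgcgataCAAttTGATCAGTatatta

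The edited C lies at position 8008054, in a coding exon, exon 26 of 29 in the longer Apob transcript. The CAA is codon 2179 of 4505 codons there, and 2 bases separate it from TGATCAGT. The share of edited messengers cannot be read from FPKM and was not analysed here.

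Apobec1 (chromosome 6, 122577792 to 122602444, minus strand) was at 8.03, 1.66 and 5.22 FPKM in NEC 1, 2 and 3 and at 2.60, 1.52 and 2.02 FPKM in control 1, 2 and 3. NEC 1 and NEC 3 lay above the controls and NEC 2 lay within them. The log2 change of 0.82 (SE 0.43) was not called. It was called without NEC 2, where it was 1.31. Of 7 listed partners of the editing enzyme, 6 were tested and 2 rose, with 0 lower and a median log2 change of -0.06, where 7.69% of all tested genes were called higher and 30.6% lower. A1cf, the RNA-binding cofactor of the editing complex, was at 24.6, 26.7 and 25.4 FPKM in NEC and 15.2, 15.5 and 14.8 FPKM in control, a log2 change of 0.72 (adjusted p = 0.00425, limma). Rbm47, another cofactor that binds Apob messenger, rose by 0.76 (adjusted p = 0.00863, limma). Both cofactors thus had every NEC value above the controls, while Apobec1 did not.

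Apoa1 and Apoa4 encode the surface apolipoproteins A-I and A-IV. Apoa4 (chromosome 9, 46240696 to 46243459, plus strand) was at 10333, 10323 and 8174 FPKM in NEC 1, 2 and 3. In control 1, 2 and 3 it was at 1678, 1855 and 2178 FPKM. The group means were 9610 ± 1244 and 1904 ± 254 FPKM (SD, n = 3 each), and the log2 change was 2.33 (SE 0.20). Apoa4 ranked 1st among protein-coding genes in each NEC library and 3rd in each control library. It alone held most of the FPKM of the listed genes in each library.

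Apoa1 (chromosome 9, 46228580 to 46230466, plus strand), the main protein of high density lipoprotein, was at 1863, 1586 and 1673 FPKM in NEC and at 856, 868 and 1106 FPKM in control. The log2 change was 0.86 (SE 0.16), the smallest of the 5 called genes. Its call was lost without control 1, where the change was 0.80, and without control 2, where it was 0.81. Control 3 was the highest control for Apoa1 and also for Apoa4, Apoc2 and Apoc3.

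Within a library, the balance between these genes differed between the groups. The ratio of Apoa4 to Apoa1 was 5.65 ± 0.816 in NEC and 2.02 ± 0.0993 in control, and that of Apoa4 to Apob was 13.9 ± 0.951 and 5.23 ± 0.721 (SD, n = 3 each). The NEC ratios all lay above the control ratios. The ratio of Apoa1 to Apob, in contrast, was 2.48 ± 0.283 in NEC and 2.59 ± 0.369 in control, with overlap. The ratio of Apoc3 to Apoa1 was 0.0763 ± 0.0101 in NEC and 0.0576 ± 0.00601 in control, every NEC value being higher. A ratio within a library does not depend on a single factor that scales the whole library, although quantile normalization can change it.

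**Figure D2:**
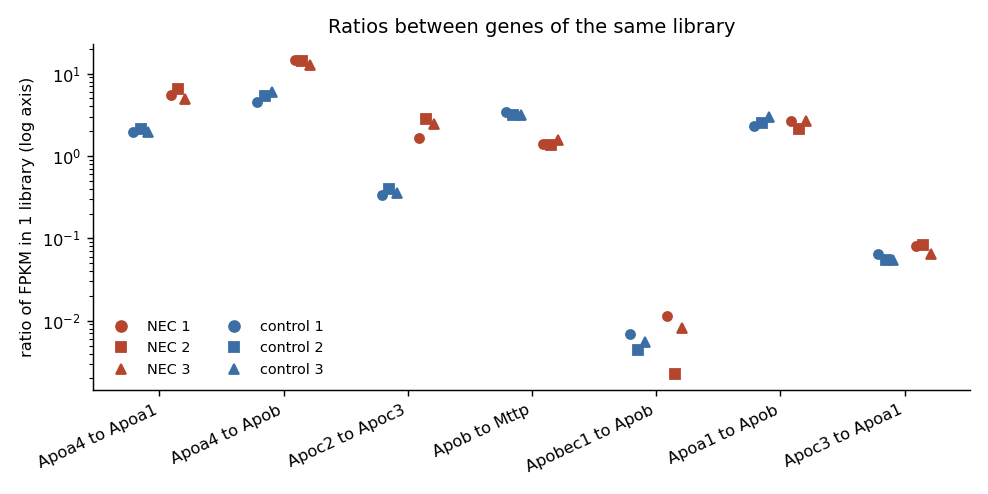
Ratios of FPKM between genes of the same library on a log axis; each symbol is 1 library, 3 control (blue) and 3 NEC (red). Apoa4 to Apoa1, Apoa4 to Apob, Apoc2 to Apoc3 and Apoc3 to Apoa1 are above the controls in all 3 NEC libraries, Apob to Mttp is below them, and Apoa1 to Apob and Apobec1 to Apob overlap.

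Apoa5, which encodes a liver apolipoprotein of triglyceride clearance, and Apoa2, which encodes a second protein of high density lipoprotein, were not expressed at a level these libraries could measure. Apoa5 (chromosome 9, 46268633 to 46271919) was at 0, 0.0424 and 0.0412 FPKM in NEC and at 0, 0.0168 and 0 in control, where a count of 0 allows 0.0639 to 0.0783 FPKM. Apoa2 (chromosome 1, 171225054 to 171226379) was at 0 in 5 libraries and at 0.0697 FPKM in NEC 3, where a count of 0 allows 0.310 to 0.380 FPKM. These limits are 3 fragments per library and cover counting error only.

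The C apolipoproteins act on lipoprotein lipase, the enzyme that frees fatty acids from chylomicrons in capillaries. Apoc2, its activator (chromosome 7, 19671579 to 19677941, minus strand), was at 249, 377 and 268 FPKM in NEC 1, 2 and 3. In control 1, 2 and 3 it was at 18.3, 18.6 and 21.0 FPKM. The log2 change of 3.86 (SE 0.17) was the largest among the listed genes, and the level rested on an estimated 3061 to 4978 fragments in NEC and 206 to 247 in control. Apoc3, an inhibitor of the lipase (chromosome 9, 46232933 to 46235636, minus strand), was at 150, 132 and 108 FPKM in NEC and at 55.2, 47.0 and 59.9 FPKM in control, a log2 change of 1.25 (SE 0.15).

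The order of activator and inhibitor was reversed between the groups. The ratio of Apoc2 to Apoc3 was 1.66, 2.85 and 2.47 in NEC 1, 2 and 3 and 0.332, 0.395 and 0.350 in control 1, 2 and 3. Apoc2 ranked 33 to 67 among protein-coding genes in NEC and 1321 to 1568 in control, whereas Apoc3 ranked 117 to 184 and 360 to 468. Apoc1 (chromosome 7, 19689481 to 19692660), the third C apolipoprotein listed, was at 0.372, 0.304 and 0.464 FPKM in NEC and at 0.101, 0.310 and 0.777 FPKM in control. Each of these Apoc1 values came from under 7 estimated fragments, so no difference was detectable at this depth.

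Apoe (chromosome 7, 19696109 to 19699188, minus strand), the ligand by which chylomicron remnants are taken up, was at 1.42, 3.86 and 4.16 FPKM in NEC and at 5.80, 3.36 and 5.53 FPKM in control. The groups overlapped, and the log2 change of -0.56 (SE 0.33) was not called. Without NEC 1, the lowest library, it was -0.21. The summed level of 10 macrophage markers was 83.1, 92.9 and 86.0 FPKM in NEC and 82.4 to 111 FPKM in control. Of 8 macrophage markers tested, 3 fell and 0 rose, close to the 30.6% of all tested genes that were called lower. None of them fell without control 1 or control 2, after quantile normalization or after scaling to epithelial markers. Without NEC 2, 1 fell, and after TMM scaling 1 fell and 1 rose. Lower calls over all tested genes also dropped there, from 4829 of 15806. They were 1049 of 15595 without control 1, 917 of 15553 without control 2 and 2991 of 15991 without NEC 2. After quantile normalization and epithelial scaling they were 2387 and 1465 of 15806. After TMM scaling, 2203 of 15733 were lower and 2639 higher. No macrophage result is drawn from the marker counts, and the part of macrophages in the Apoe values was not tested.

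In each library the order of levels began with Apoa4, Apoa1 and Apob, whose values did not overlap with one another within a group. Apoc2 and Apoc3 took the 4th and 5th places in NEC and the reverse places in control. Apoe and Apobec1 overlapped in NEC, with Apobec1 above Apoe in NEC 1 and NEC 3, whereas in the controls each Apoe value was above each Apobec1 value. Apoc1 lay below both in every library. Together the 10 genes held 4.47%, 5.44% and 4.03% of all FPKM outside 7SL and 7SK RNA in NEC 1, 2 and 3. In the controls they held 1.14%, 1.20% and 1.36%.

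NEC 1 differed from the other NEC libraries in its content of smooth muscle and stromal messenger. The summed level of 7 smooth muscle markers was 156 FPKM in NEC 1, 768 and 778 in NEC 2 and NEC 3, and 885 to 1093 in control. That of 7 stromal fibroblast markers was 94.0, 259 and 304 FPKM in NEC and 546 to 680 in control. Without NEC 1, the log2 changes were 2.28 for Apoa4, 0.80 for Apoa1, 0.91 for Apob, 3.98 for Apoc2 and 1.14 for Apoc3, each still called.

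Most of the listed genes that were expressed lie in 2 gene clusters. Apoa1, Apoc3, Apoa4 and Apoa5 lie within 43.3 kb of chromosome 9, and Apoc2, Apoc1 and Apoe within 27.6 kb of chromosome 7. On chromosome 9 the log2 change was 0.86 for Apoa1, 1.25 for Apoc3 and 2.33 for Apoa4. The nearest tested protein-coding neighbours were not called. Sik3, a kinase, had a log2 change of -0.19, Zpr1, a zinc finger protein, of -0.09, and Bud13, a splicing factor, of -0.27. Further out, Pafah1b2 fell by 0.39 (adjusted p = 0.0484, limma) and Sidt2, a lysosomal membrane protein, rose by 0.67 (adjusted p = 0.0486, limma). Neither call held without any 1 of the controls, with changes of -0.35 to -0.42 and of 0.66 to 0.67.

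Gm10680, a noncoding gene on the strand opposite to Apoa4, overlaps the 3′ end of Apoa4. It was at 132, 84.7 and 76.5 FPKM in NEC and at 24.8, 16.6 and 20.7 FPKM in control. The strand setting of the counting is not given in the sources used here, so reads of Apoa4 and Gm10680 cannot be told apart.

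On chromosome 7, Apoc2 and Apoe were the genes of the cluster that could be tested, and Apoc2 was called. Clptm1, the nearest protein-coding gene on one side, had a log2 change of 0.04, and Tomm40, a mitochondrial import channel subunit and the nearest gene on the other side, had 0.01. Relb, Clasrp, Nectin2 and Bcam, the other neighbours, were not called either, with log2 changes from -0.72 for Bcam to 0.22 for Nectin2, although Bcam was called without NEC 3, at -0.98. Apoc4, which lies inside the cluster, was at or near 0 in every library.

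**Figure D3:**
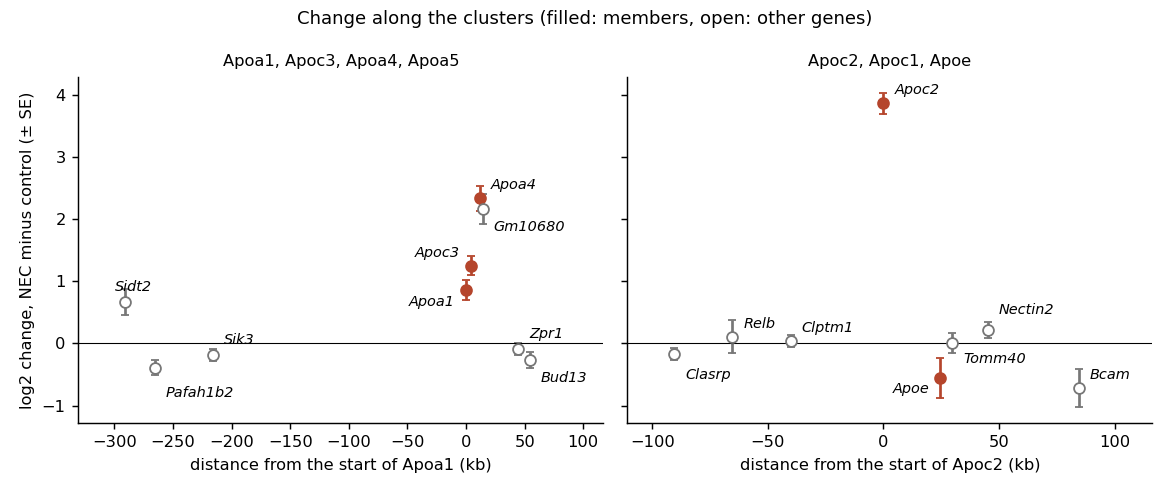
Log2 change, NEC minus control, against the distance from the start of Apoa1 on chromosome 9 and from the start of Apoc2 on chromosome 7 in kb; filled points are listed genes, open points other genes, and bars are ± 1 SE. Apoc2 stands at 3.86 and the other genes of its panel between -0.72 and 0.22, and Apoc3 and Apoa4 stand above Apoa1.

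The upstream windows of Apoc2, Apoa4 and Apoa1 are shown because these genes share clusters with less changed or silent ones. They were read from RefSeq (GRCm38.p6) and end at the first annotated start: chr7:19677942-19678082 on the minus strand for Apoc2, chr9:46240594-46240695 on the plus strand for Apoa4 and chr9:46228380-46228579 on the plus strand for Apoa1. Capitals mark CAAAGTTCA in Apoa4, a spelling of the HNF4 repeat. The Apoc2 and Apoa1 windows hold none of the letter strings given here.

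Apoc2: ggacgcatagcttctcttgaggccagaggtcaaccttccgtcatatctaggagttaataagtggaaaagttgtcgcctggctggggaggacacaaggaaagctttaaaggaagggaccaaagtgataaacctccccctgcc

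Apoa4: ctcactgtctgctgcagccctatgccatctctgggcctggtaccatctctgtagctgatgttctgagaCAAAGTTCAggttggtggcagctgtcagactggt

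Apoa1: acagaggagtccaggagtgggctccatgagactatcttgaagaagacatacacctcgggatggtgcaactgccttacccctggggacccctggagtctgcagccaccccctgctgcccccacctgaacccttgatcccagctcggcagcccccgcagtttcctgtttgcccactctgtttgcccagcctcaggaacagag

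Promoters of 8 of the 10 genes were found, in 12 windows, and searched on both strands. CAAAGTTCA, added after the sequences had been seen, occurred in 0.390% of all promoters and, among the listed genes, in those of Apoa4 and Apobec1. Besides Apob, TATAAA lay in windows of Apoa2, Apoa5, Apoe and Apobec1. Relative to the RefSeq start, the letters began at -212 in Apoa2 and, on the other strand, at -212 in Apobec1. They began at -96 and -100 in Apoe, and at -31 and -56 in different windows of Apoa5. The search did not weigh position, so no TATA box is read from these matches. The other spellings CAAAGTCCA (0.475% of promoters) and CAAAGGTCA (0.478%), AGATAA for GATA factors (11.2%) and TGACGT, the core of the cyclic AMP response element (7.51%), matched no window of a listed gene. The absence of a match says only that these letters are not in these windows.

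Genes known to act on these promoters were read next. Of 31 listed regulators, 29 were tested, 4 rose, 2 fell and 23 did not pass, with a median log2 change of 0.12 against -0.26 for all tested genes. The shares called over all tested genes were 7.69% higher and 30.6% lower. The count of rises depended on the scaling, with 12 after TMM scaling and 8 after quantile normalization. It was 7 without NEC 1, 3 without control 1 and 2 without control 2. Higher calls over all tested genes moved as well, from 1215 of 15806. They numbered 2639 of 15733 after TMM scaling and 2202 of 15806 after quantile normalization. The number was 1566 of 16029 without NEC 1, 499 of 15595 without control 1 and 471 of 15553 without control 2. Among the regulators, falls numbered 4 without NEC 1 and 5 without NEC 3. They numbered 1 without control 1, without control 2 or after scaling to epithelial markers. The 4829 lower calls over all tested genes became 5371, 5378, 1049, 917 and 1465 in those fits, in that order. Hnf4a, a nuclear receptor of liver and gut that binds apolipoprotein promoters, was at 49.7, 72.6 and 72.4 FPKM in NEC and at 63.3, 66.7 and 62.4 FPKM in control. The controls lay within the NEC range, and the log2 change was -0.00 (adjusted p = 0.986, limma). Hnf4g, its close relative, had a log2 change of 0.07 (adjusted p = 0.720, limma) on the deposited scale and was called after TMM scaling, at 0.41.

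Creb3l3 encodes a membrane-bound transcription factor known to act on Apoa4, Apoc2 and other lipoprotein genes. It was at 301, 218 and 182 FPKM in NEC 1, 2 and 3 and at 59.1, 58.7 and 54.6 FPKM in control, a log2 change of 1.97 (adjusted p = 0.0023, limma). Gata4, a factor whose expression in the gut is known to be high in the duodenum and jejunum and low in the ileum, was at 7.96, 7.28 and 3.74 FPKM in NEC and at 0.184, 0.0852 and 0.0622 FPKM in control. Its log2 change was 2.67 (adjusted p = 0.00224, limma). Slc10a2 and Fabp6, bile acid genes known from the ileum, were low in both groups at postnatal day 9. Slc10a2, the ileal bile acid transporter, was at 1.01 to 2.30 FPKM in NEC and 1.31 to 2.21 FPKM in control, and Fabp6, the ileal bile acid-binding protein, was at 0.123, 0 and 10.4 FPKM in NEC and at 1.20 to 2.45 FPKM in control. Fabp6 rested on NEC 3 and was called lower without it, at -1.28. Slc10a2 and Fabp6 were chosen after their values had been seen. No reference for their level at this age was at hand, so no position along the intestine is read from them. Whether the position along the intestine differed between the groups was not tested.

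Nr1h3, the liver X receptor alpha, rose by 0.58 (adjusted p = 0.0108, limma), and its call was lost without control 2, where the change was 0.54. The remaining regulator that rose was Ppara, a fatty acid-sensing nuclear receptor, at 0.58 (adjusted p = 0.0231, limma), named after its value had been seen. The Ppara call was lost without any 1 of the controls, where the change was 0.54 to 0.65. Rora, a nuclear receptor known to act on Apoa1 and Apoc3, fell by 1.09 on the log2 scale (adjusted p = 0.00477, limma), from 4.04 to 4.33 FPKM in control to 1.05 to 1.65 in NEC. Nr2f2, a receptor that competes for HNF4 sites, fell by 0.72 (adjusted p = 0.0136, limma). The Nr2f2 call was lost without control 1 (-0.75) or control 2 (-0.68) and after scaling to epithelial markers (-0.68).

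Most genes of chylomicron assembly and secretion rose. Of 28 listed and tested, 21 rose, 1 fell and 6 did not pass, with a median log2 change of 0.91 against -0.26 for all tested genes, of which 7.69% were called higher and 30.6% lower. Without control 2, 16 rose and 0 fell. Higher calls over all tested genes then numbered 471 of 15553, against 1215 of 15806, and lower calls 917 against 4829. Mttp, which loads Apob with triglyceride, was at 508, 543 and 411 FPKM in NEC and at 110, 111 and 117 FPKM in control, a log2 change of 2.09 (adjusted p = 0.000796, limma). Mttp thus rose by more than Apob differed, and the ratio of Apob to Mttp was 1.43 ± 0.104 in NEC against 3.23 ± 0.151 in control (SD, n = 3 each), every NEC ratio being lower.

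Tm6sf2, a membrane protein of lipoprotein loading, was at 47.6, 49.3 and 46.2 FPKM in NEC and at 10.8, 9.80 and 12.7 FPKM in control (log2 change 2.02, adjusted p = 0.000554, limma). The fatty acid-binding proteins of enterocytes changed most. Fabp2 went from 87.1 to 105 FPKM in control to 925 to 1221 FPKM in NEC, a log2 change of 3.44 (adjusted p = 0.000246, limma). Fabp1, known to be higher in the upper small intestine, went from 0.232 to 0.781 FPKM in control to 70.6 to 194 FPKM in NEC, a log2 change of 6.42 (adjusted p = 0.000585, limma).

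The 2 Sar1 genes, which encode the small GTPases that form transport vesicles at the endoplasmic reticulum, moved in opposite directions. Sar1b, the form linked to chylomicron export, was at 101, 117 and 85.5 FPKM in NEC and at 49.8, 45.6 and 47.0 FPKM in control (log2 change 1.06, adjusted p = 0.00493, limma). Sar1a was at 11.1, 15.2 and 14.5 FPKM in NEC and at 22.0, 21.1 and 20.2 FPKM in control, a log2 change of -0.61 (adjusted p = 0.0158, limma). The Sar1a call was lost without control 1 (-0.58) or control 2 (-0.61) and after scaling to epithelial markers (-0.57).

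**Figure D4:**
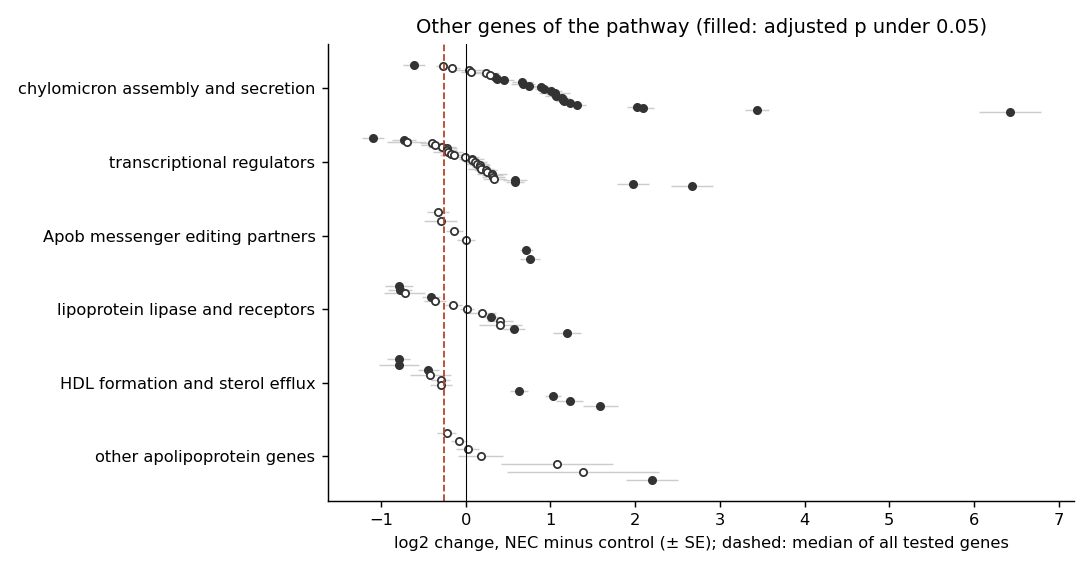
Log2 change, NEC minus control, of each tested gene of the 6 pathway lists; points are genes, filled where the adjusted p is under 0.05, with bars of ± 1 SE, and the dashed line is the median of all 15806 tested genes, -0.26. In the assembly list 21 filled points lie above 0 and Sar1a below it, and among the regulators Gata4 at 2.67 and Creb3l3 at 1.97 lie farthest to the right.

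The genes that act on the particle after its release gave mixed calls. Of 18 genes of lipoprotein lipase and receptors, 13 were tested, 3 rose, 3 fell and 7 did not pass, with a median log2 change of 0.02, beside 7.69% of all tested genes higher and 30.6% lower. With any 1 control left out, or after scaling to epithelial markers, 1 rose, and 2 rose without NEC 2. The falls numbered 1 without control 1, 0 without control 2, 5 without NEC 3 and 1 after scaling to epithelial markers. Calls over all tested genes moved too. The 1215 higher calls became 499, 471 and 663 without control 1, 2 and 3, 827 with epithelial scaling and 795 without NEC 2. The 4829 lower calls became 1049 without control 1, 917 without control 2, 5378 without NEC 3 and 1465 with epithelial scaling. Lpl, the lipase that Apoc2 activates, was at 0.382, 0.687 and 0.664 FPKM in NEC and at 1.54, 2.01 and 1.54 FPKM in control (log2 change -0.77, adjusted p = 0.0107, limma). Without control 2 its mean was under 1 FPKM and it was not tested. Angptl4, an inhibitor of the lipase, fell by 0.79 (adjusted p = 0.0161, limma), a call lost without control 1 (-0.77) or control 2 (-0.72) and after scaling to epithelial markers (-0.74). Scarb1, the high density lipoprotein receptor, rose by 0.57 (adjusted p = 0.0197, limma), and this call was lost without any 1 of the controls, at 0.55 to 0.59. Named after their values had been seen, Lrp1, a remnant receptor, rose by 0.29 and Mylip, a ubiquitin ligase of lipoprotein receptors, fell by 0.41 (adjusted p = 0.0334 and 0.0246, limma). Leaving out any 1 control ended both calls, at 0.29 to 0.30 and at -0.40 to -0.41, and Mylip was at -0.12 after TMM scaling.

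Of 13 genes of high density lipoprotein formation and sterol transport, 10 were tested, 4 rose, 3 fell and 3 did not pass, and the median log2 change was -0.30. Over all tested genes 7.69% were called higher and 30.6% lower, so the share of falls in the list was that of all genes. The 4 that rose handle sterol at the enterocyte. Npc1l1, the cholesterol uptake transporter, rose by 1.23 (adjusted p = 0.00543, limma) and Soat2, which esterifies cholesterol for chylomicrons, by 1.59 (adjusted p = 0.0059, limma). Abcg5 and Abcg8, the paired transporters that return sterols to the lumen, rose by 1.03 and 0.63 (adjusted p = 0.00235 and 0.00925, limma). Abca1, which loads apolipoprotein A-I with lipid, was at 10.2, 6.46 and 4.67 FPKM in NEC and at 10.3, 9.82 and 8.18 FPKM in control. NEC 1 lay within the controls, and the log2 change of -0.42 was not called (adjusted p = 0.210, limma), whereas without NEC 1 it was called, at -0.68.

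The falls in that list, which numbered 1 without any 1 of the controls and after each scaling tried, are named without being read as a result about the list. Lower calls over all tested genes dropped there as well, from 4829 to between 917 and 3153. The genes of the list that fell were Pon3, a high density lipoprotein-associated lactonase, Abcg1, a sterol exporter, and Pltp, a phospholipid transfer protein. Their log2 changes were -0.79, -0.44 and -0.79 (adjusted p = 0.00963, 0.0323 and 0.0387, limma). The calls of Abcg1 and Pltp were lost under TMM scaling, with changes of -0.21 and -0.55. Leaving out any 1 control ended them as well, at -0.41 to -0.48 and at -0.72 to -0.90.

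Of 26 other apolipoprotein genes, 7 were tested and 1 was called, with a median log2 change of 0.18, against 38.2% of all tested genes called. Apol7a, of the apolipoprotein L family, was at 9.61, 4.95 and 3.45 FPKM in NEC and at 0.508, 0.521 and 0.269 FPKM in control (log2 change 2.20, adjusted p = 0.00653, limma). Members of this family are close copies, and how their reads were divided is uncertain. Saa3, an acute-phase apolipoprotein, and Apol9a stood out in NEC 1, at 14.3 and 9.88 FPKM, against at most 0.468 and 1.08 FPKM in the other 5 libraries. These were named after their values had been seen, and neither was called.

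The other cell types that could carry apolipoprotein messenger were read from marker lists. Albumin, Alb, the defining product of the hepatocyte, was at 0 to 0.103 FPKM in the 6 libraries, and Ahsg, another liver plasma protein, was listed at 0 in all of them. The summed level of 15 hepatocyte markers was 40.4, 52.8 and 75.5 FPKM in NEC and 148 to 161 FPKM in control. Of 8 tested, 6 fell and 0 rose, where 30.6% of all tested genes were called lower. Those that fell included Ttr, the thyroxine carrier, and Trf, transferrin. The Trf call was lost without control 2, at -1.51, and 2 to 4 of the 8 fell without 1 of the controls. The 4829 lower calls over all tested genes became 1049, 917 and 1979 without control 1, 2 and 3. The part of the hepatocyte markers in the apolipoprotein values was not tested. Afp, the fetal serum protein also made by fetal gut, was at 2.60, 3.20 and 8.17 FPKM in NEC and at 117, 147 and 134 FPKM in control (log2 change -4.69, adjusted p = 0.00124, limma).

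Most tested markers of absorptive enterocytes were higher in NEC. Their median log2 change was 0.62, against 0.86 to 3.86 for the 5 called genes. The summed level of the 10 enterocyte markers was 1915, 1892 and 1792 FPKM in NEC and 1158 to 1249 FPKM in control. Of 9 tested, 7 rose, 1 fell and 1 did not pass, beside 7.69% of all tested genes higher and 30.6% lower. With any 1 of the controls left out, 5 rose. Higher calls over all tested genes were then 499, 471 and 663 without control 1, 2 and 3, against 1215. Slc5a1, the sodium-glucose transporter, and Alpi, intestinal alkaline phosphatase, were among those that rose, by 1.98 and 0.76, and Mep1a, the meprin A subunit alpha, fell by 1.34 on the log2 scale. These markers and the hepatocyte markers Ttr and Trf were picked as examples after their values had been seen. The summed level of markers shared by all epithelial cells overlapped between the groups. It was 1483, 1180 and 1164 FPKM in NEC and 1180 to 1264 FPKM in control. Of 10 such markers tested, 1 rose, 1 fell and 8 did not pass, beside 7.69% of all tested genes higher and 30.6% lower. Tspan8 rose by 0.56 and Krt19 fell by 1.40 on the log2 scale (adjusted p = 0.0109 and 0.00822, limma). Without control 1 or control 2, 0 rose and 1 fell. Over all tested genes, 499 and 471 were then higher and 1049 and 917 lower. Scaled to these epithelial markers, the log2 changes were 2.38 for Apoa4, 0.91 for Apoa1, 0.97 for Apob, 3.90 for Apoc2 and 1.29 for Apoc3. The part of the enterocyte markers in the apolipoprotein values was not tested.

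The genes whose pattern over the 6 libraries was nearest to a listed gene were taken from 5741 protein-coding genes of at least 5 FPKM, by the root-mean-square difference of log2(FPKM + 1) values centred on each gene's own mean. Nearest to Apob were Slc25a5, a mitochondrial adenine nucleotide carrier, at 0.0234, Lrrc59, a membrane protein of the endoplasmic reticulum, at 0.0301, and Fam234a at 0.0353. Slc25a5 was at 190, 203 and 170 FPKM in NEC and at 104, 97.4 and 99.1 FPKM in control. Nearest to Apoa4 were Ceacam18 at 0.142, Ephx2, the soluble epoxide hydrolase, at 0.148, and Mttp at 0.151. Nearest to Apoc2 were Gsta1, a glutathione transferase, at 0.227, Fabp2 at 0.242 and Lct, lactase, at 0.304. The ratio of Apoc2 to Fabp2 within a library was 0.239, 0.309 and 0.289 in NEC and 0.189, 0.213 and 0.199 in control, so Apoc2 differed somewhat more between the groups than Fabp2.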

How the data were processed

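RNA of integrity number above 7 was made into paired-end TruSeq libraries, per the labels' protocols. The submitters' processing notes name HISAT2, SAMtools 1.3.1, Cuffdiff and the build mm10. Not given in the sources used here were other versions, the annotation and the strand setting. The authors deposited 1 value per gene and library, without a unit, which was taken to be FPKM computed by Cuffdiff from the aligned fragments, because Cuffdiff writes FPKM. Also, 94.0% to 95.4% of low values per library were whole fragments within 0.05, over single-transcript genes of more than 500 bases and below 30 fragments. These steps gave the depths, and the fragments behind a gene are estimates from its longest transcript. Column names starting with N were matched to the NEC titles by number. Of 55487 identifiers, 55227 matched GENCODE M21.

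Log2(FPKM + 1) values were fitted with limma 3.58.1 (R 4.3.3, mean-variance trend, group as the only term) for all 15806 genes averaging 1 FPKM or more. Genes were called at a Benjamini-Hochberg adjusted p under 0.05. No exact permutation test was used, since 3 libraries against 3 allow no p under 0.1. The genes described, the lists, the markers and the tests were chosen with earlier results of these data known. Named from each pathway list were the 4 called genes with the smallest p and those called against the larger direction of the list, plus Mttp, Sar1b, Creb3l3, Hnf4a, Hnf4g, Gata4, A1cf, Rbm47, Lpl, Abca1, Alb and Afp. Some genes that this rule takes, and 1 promoter motif, are not reported here. Alternatives were a pseudocount of 0.1, no filter, a filter at 5 FPKM, TMM scaling without weights, quantile normalization, equal totals without 7SL and 7SK RNA, scaling to epithelial markers, the replicate number as a block, and leaving out each library. Promoters came from RefSeq. The printed windows were trimmed to upstream of the first annotated start, whereas the searches used the untrimmed windows. Plots were made in Python 3.11.15 with matplotlib 3.10.9.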

Additional observations from a re-analysis of the deposited data

How the results depend on the processing

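The log2 changes ranged over 14 alternatives from 2.25 to 2.68 for Apoa4, 0.87 to 1.27 for Apob, 3.68 to 4.19 for Apoc2, 1.14 to 1.59 for Apoc3 and 0.63 to 1.21 for Apoa1. These refits use the values by which the genes were listed, so their calls add no support; that of Apoa1 was lost without control 1 or control 2. Of all tested genes, 1215 were higher and 4829 lower. These counts became 2639 and 2203 with TMM scaling, 2202 and 2387 with quantile normalization, and 806 and 3153 with equal totals without 7SL and 7SK RNA. The lower calls became 1746 among genes of at least 5 FPKM and 1465 with scaling to epithelial markers. With 1 library left out, the higher calls ranged from 471 to 1566 and the lower calls from 917 to 5378. They were 499 and 1049 without control 1, 471 and 917 without control 2, 663 and 1979 without control 3, and 795 and 2991 without NEC 2. Fewer libraries were tested there, and the cause of the other shifts was not tested. Within a group, the median SD of log2(FPKM + 1) over genes was 0.211 in NEC and 0.0936 in control. The fit used 1 variance per gene for both groups, and the part of this difference in the shifts was not tested. The 35 higher calls among pathway genes ranged from 26 to 41 with 1 library left out. The 9 lower calls became 2 at the higher filter and 3 with epithelial scaling, and ranged from 2 to 14 with 1 library left out, with 14 without NEC 1, 3 without control 1 and 2 without control 2. With 7SL and 7SK RNA in the total, the listed genes held 2.62% of FPKM in NEC and 0.784% in control. With a block for the replicate number, 856 genes were higher and 3230 lower, 5 listed genes were higher, and of the pathway genes 31 were higher and 6 lower. Among the genes named, the block ended the calls of Abcg1, Pltp, Lrp1, Mylip, Pafah1b2 and Sidt2 and of no other. Same-numbered libraries correlated in their deviations at -0.051, -0.007 and -0.074. Deviations were taken from the means of groups of 3 libraries, so this check cannot show whether the numbers pair the libraries. The labels do not say. Depth limits Apoc1, Apoa2 and Apoa5.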
